A study of Mus musculus with 186 samples.

Results

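The 10 genes described here are Atf4, which encodes the stress-response transcription factor ATF4, and 9 genes known as its targets, Atf5, Asns, Phgdh, Psat1, Chac1, Ddit3, Ddit4, Trib3 and Mthfd2. They were chosen by name, as 10 of the 55421 genes in the deposited table. All 10 were among the 11680 genes tested. They were measured by single-cell RNA sequencing in inner cells of CD-1 mouse embryos from natural matings. Embryos taken fresh were of 3 ages (E3.25, E3.75, E4.0), where E counts days after fertilisation. Other embryos were taken as morulae at E2.75 and cultured in KSOM medium for 16 or 24 hours. These received either 10 µM LY294002 (here LY), which blocks phosphoinositide 3-kinase (PI3K) and is known to act on mTOR and other kinases as well, or its solvent DMSO. The outer cells had been lysed by immunosurgery in all 7 groups. Each collection pooled several litters, so a mean over its cells may mix embryos, while each value comes from an individual cell.

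When a cell runs short of an amino acid, uncharged tRNA activates the kinase GCN2, and GCN2 and related stress kinases phosphorylate the translation factor eIF2. General translation then falls while the Atf4 mRNA, which carries short upstream reading frames, is translated better. ATF4 pairs with C/EBP proteins on composite DNA elements and switches on genes for amino acid uptake, asparagine and serine synthesis, and feedback. The growth kinase complex mTORC1, which acts downstream of PI3K, is known to raise ATF4 as well. Because this control is largely translational, the Atf4 mRNA does not measure the ATF4 protein, and its targets are the usual readout.

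The C/EBP-ATF composite element was searched as TGATGNAA on both strands of each RefSeq promoter window, which runs from 250 bases before to 50 bases after the annotated start (GRCm38.p6). All 10 genes matched a window, with 12 windows in total. Asns, Chac1 and Trib3 held the motif, which is 30% of the 10 genes, against 4.51% of all 27025 gene symbols with a window. Since the genes were chosen as known ATF4 targets, a higher share was likely beforehand and is no finding of these data. The sites shown are all the matches found in these windows, and a link between them and the levels of the genes was not tested. The capitals mark the motif.
Chac1 (chr2:119351038-119351067, minus strand): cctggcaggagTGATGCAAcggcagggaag
Trib3 (chr2:152344028-152344057, plus strand): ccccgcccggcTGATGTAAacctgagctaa
Asns (chr6:7693214-7693243, minus strand): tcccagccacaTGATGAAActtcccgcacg
The Chac1 motif began 193 bases before the RefSeq start and the Asns motif 23 bases before it, while that of Trib3 lay just past the RefSeq start. A match describes the letters and is not a measured binding site, and the absence of a match in the other 7 genes concerns only these windows and these letters.

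The table covered 169 cells in 18 experiments, an experiment being the cells of 1 group collected on 1 date. The E3.25 group had 19 cells, the E3.75 group 22 and the E4.0 group 14, in 2 experiments each. After 16 hours the DMSO group had 31 cells and the LY group 31, and after 24 hours they had 28 and 24, in 3 experiments each, the arms of a culture time sharing their dates. Values are TPM, transcript abundances scaled to a fixed total per cell, which carry no sequencing depth, so depth is unknown. The number of genes at a TPM of 1 or more, called detected here, ranged from 3806 to 10220 per cell. It averaged 8084 over the 16 hour DMSO experiments, 6832 over the 16 hour LY ones, and 6454 and 5439 over those of 24 hours, against 6235, 6186 and 7459 in the fresh groups in order of age. The first 16 hour DMSO experiment held 3 cells and the most detected genes, 9995 on average, and values without it stand beside the main results that it moved most. The inner-cell marker Pou5f1 was detected in all cells of all groups. The summed level of 12 trophectoderm markers ranged from 317 to 358 TPM in the E3.25 experiments, from 86.8 to 137 for E3.75, and from 94.6 to 107 for E4.0. After 16 hours it ranged from 183 to 1047 TPM in DMSO and from 155 to 268 in LY, and after 24 hours from 206 to 345 and from 229 to 363. Of its defining markers, Elf5 was at 0 at E3.75, at E4.0 and in both 16 hour groups, and Cdx2 was at 0 at E3.75. Others were detected: Cdx2 in 8 of 31 and Gata3 in 13 of 31 cells with DMSO at 16 hours, Cdx2 in 5 of 24 with LY at 24 hours, and Krt8 in 71.4 to 100% of the cells of each group.

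Levels below are means over the cells of an experiment of log2(TPM + 1), a scale that understates the fold change of low genes. A mean of this kind does not tell fewer expressing cells from less RNA per cell, so the share of cells in which a gene was detected is given beside it. The libraries start at the 3′ end of transcripts while TPM divides by length, so levels are compared between samples and not between genes.

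**Figure D1:**
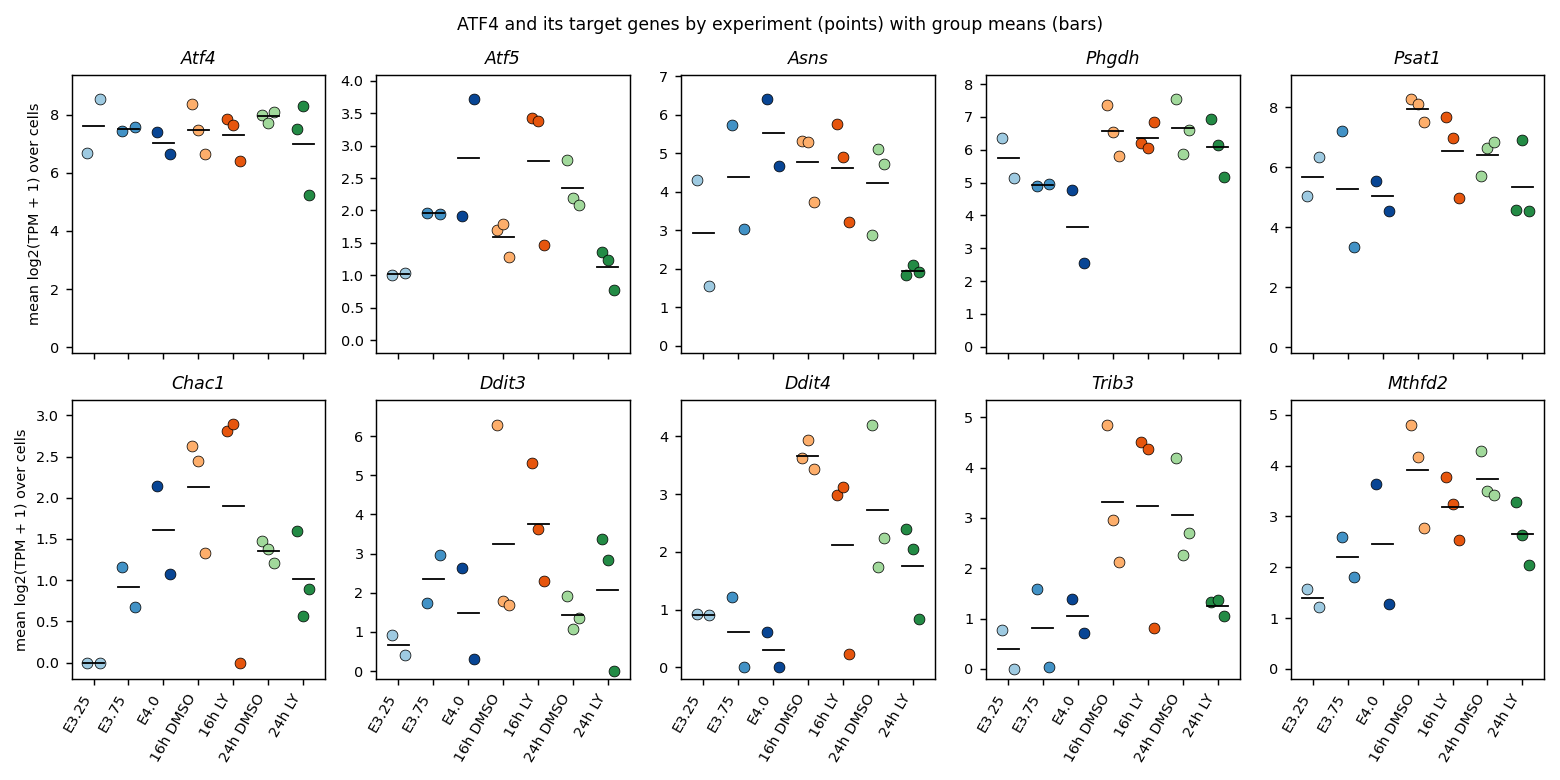
Level of each gene in every experiment, as the mean over cells of log2(TPM + 1) on the vertical axis, for the 7 groups on the horizontal axis; points are experiments and bars are group means. Atf4 stayed between 5.23 and 8.52 in all 18 experiments, while Trib3 ranged from 0.01 to 4.85 and Ddit3 from 0 to 6.29.

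Atf4 (chr15:80255184-80257541, GRCm38, plus strand) was detected in every cell of 6 groups and in 22 of 24 cells of the 24 hour LY group. Its level was 6.68 and 8.52 at E3.25, 7.42 and 7.58 at E3.75, and 7.41 and 6.63 at E4.0. The 16 hour experiments gave 8.35, 7.46 and 6.65 with DMSO and 7.86, 7.64 and 6.42 with LY. At 24 hours the level was 7.999, 7.72 and 8.08 with DMSO and 7.49, 8.28 and 5.23 with LY. The last of these was the lowest of all 18, and every pair of groups adjacent in the order of group means overlapped.

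Atf5 (chr7:44812256-44816658, minus strand) encodes a related factor whose translation is controlled in the same way and whose gene ATF4 is known to activate. It overlaps Nup62 and Il4i1 on the opposite strand, and no source used here says whether the counting used strand. Its level was 1.01 and 1.03 at E3.25, 1.97 and 1.95 at E3.75, and 1.91 and 3.72 at E4.0. With DMSO it was 1.70, 1.79 and 1.28 after 16 hours and 2.77, 2.195 and 2.09 after 24 hours. With LY it was 3.42, 3.38 and 1.47 after 16 hours and 1.36, 1.24 and 0.78 after 24 hours. The 16 hour LY group thus held 2 of the 3 highest experiments and the 24 hour LY group the lowest one. Atf5 was detected in 26.3% of E3.25 cells, 45.5% of E3.75 cells and 71.4% of E4.0 cells, and with LY in 74.2% after 16 hours and 29.2% after 24 hours.

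Asns (chr6:7675169-7693254, minus strand) encodes asparagine synthetase, which makes asparagine from aspartate and glutamine. Its level was 4.31 and 1.55 at E3.25, 5.75 and 3.04 at E3.75, and 6.41 and 4.67 at E4.0. With DMSO it was 5.33, 5.29 and 3.73 after 16 hours and 2.87, 5.12 and 4.72 after 24 hours. With LY it was 5.76, 4.91 and 3.21 after 16 hours and 1.82, 2.09 and 1.91 after 24 hours. All 3 of the 24 hour LY experiments lay below every other experiment except the second at E3.25. Asns was detected in 100% of the 14 cells at E4.0 and in 50% of the 24 cells with LY at 24 hours. In the first 24 hour LY experiment, 1 of the 7 cells had a TPM of 766, and the mean TPM was 110 where the median was 0.21.

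Phgdh (chr3:98313170-98339990, minus strand) and Psat1 (chr19:15904678-15947337, minus strand) encode consecutive enzymes of serine synthesis from a glycolytic intermediate. The table also lists the pseudogene Phgdh-ps1, and reads shared with it would make the Phgdh values uncertain. The Phgdh level was 6.36 and 5.15 at E3.25, 4.89 and 4.97 at E3.75, and 4.76 and 2.55 at E4.0, so the 3 fresh ages did not overlap and followed a descending order. In culture it lay between 5.16 and 7.54 in all 12 experiments, above every E3.75 and E4.0 experiment. Psat1 was 8.26, 8.09 and 7.51 with DMSO at 16 hours, which were 3 of its 4 highest values. The other 15 experiments spanned 3.32 to 7.66, and Psat1 was detected in at least 87.5% of the cells of each group. It overlaps Gm3329 on the opposite strand.

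Mthfd2 (chr6:83305691-83325908, minus strand) encodes a mitochondrial folate enzyme that passes on the one-carbon units that serine supplies. It overlaps Gm43890 on the same strand, so reads could be split between them. Its level was 1.58 and 1.21 at E3.25, 2.60 and 1.80 at E3.75, and 3.63 and 1.27 at E4.0. With DMSO it was 4.80, 4.17 and 2.78 after 16 hours and 4.28, 3.50 and 3.42 after 24 hours. With LY it was 3.78, 3.24 and 2.54 after 16 hours and 3.27, 2.63 and 2.05 after 24 hours. Both E3.25 experiments lay below all 12 culture experiments.

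Trib3 (chr2:152337422-152344032, minus strand) encodes a pseudokinase that binds ATF4 and is known to dampen its activity. Its level was 0.78 and 0.01 at E3.25, 1.59 and 0.04 at E3.75, and 1.40 and 0.72 at E4.0. With DMSO it was 4.85, 2.97 and 2.13 after 16 hours and 4.19, 2.26 and 2.71 after 24 hours. With LY it was 4.51, 4.37 and 0.82 after 16 hours and 1.33, 1.37 and 1.06 after 24 hours. All 6 DMSO experiments lay above all 6 fresh ones, and the 24 hour LY experiments lay among the fresh ones. Trib3 was detected in 1 of 19 cells at E3.25 (5.26%, exact 95% interval 0.133 to 26.0%) and in 24 of 31 cells with DMSO at 16 hours (77.4%, exact 95% interval 58.9 to 90.4%). These intervals cover counting error only.

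Ddit4 (chr10:59949669-59951834, minus strand) encodes an inhibitor of mTORC1. Its level was 0.92 and 0.91 at E3.25, 1.21 and 0 at E3.75, and 0.61 and 0 at E4.0. With DMSO it was 3.62, 3.94 and 3.43 after 16 hours and 4.20, 1.75 and 2.24 after 24 hours. With LY it was 2.98, 3.12 and 0.24 after 16 hours and 2.39, 2.05 and 0.84 after 24 hours. The DMSO experiments again lay above all fresh ones, and each group with LY had 1 experiment within the fresh range. It was detected in 83.9% of cells with DMSO at 16 hours and in 14.3% at E4.0.

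Chac1 (chr2:119351229-119354381, plus strand) encodes an enzyme that breaks down glutathione. It was listed at 0 at E3.25 in every one of the 19 cells, for which the exact 95% interval reaches 17.6% of cells. Its level was 1.16 and 0.67 at E3.75, 2.14 and 1.07 at E4.0, 2.62, 2.45 and 1.33 with DMSO at 16 hours, and 1.48, 1.37 and 1.21 with DMSO at 24 hours. With LY it was 2.81, 2.89 and 0 after 16 hours and 1.59, 0.57 and 0.90 after 24 hours. Both E3.25 experiments were thus below all experiments of 5 groups and level with 1 experiment of the sixth, the third 16 hour LY experiment.

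Ddit3 (chr10:127290774-127296288, plus strand) encodes CHOP, a C/EBP family factor tied to cell death under prolonged stress. It overlaps Mars and Gm4189 on the opposite strand, and 2 annotated genes carry its symbol. Its level was 6.29, 1.78 and 1.68 with DMSO at 16 hours, 5.31, 3.63 and 2.31 with LY at 16 hours, and 0.92 and 0.42 at E3.25. At 24 hours it was 1.91, 1.07 and 1.35 with DMSO and 3.37, 2.85 and 0 with LY. The highest value came from the experiment of 3 cells. Ddit3 was detected in 15 of 31 cells with DMSO and in 24 of 31 with LY at 16 hours. The other fresh levels, 1.73 and 2.96 at E3.75 and 2.63 and 0.32 at E4.0, lay among those of the cultured cells.

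**Figure D2:**
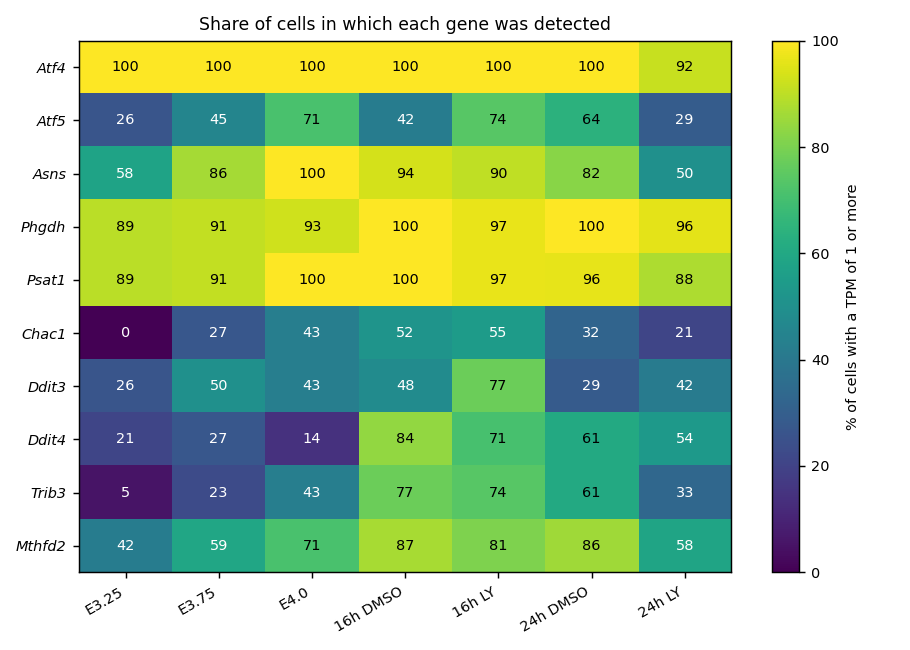
Share of cells, in percent, in which each gene (rows) had a TPM of 1 or more in each group (columns). Atf4 was detected in nearly all cells of every group, whereas Trib3 went from 5.26% at E3.25 to 77.4% with DMSO at 16 hours and Chac1 from 0% to 51.6%.

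Fresh and cultured cells were compared as 16 hour DMSO against E3.25 and as 24 hour DMSO against E3.75. By nominal age, embryos cultured for 24 hours were matched to E3.75, while those cultured for 16 hours were older than E3.25. After 16 hours, 9 of the 10 genes had a positive difference from E3.25, as did 66.6% of all tested genes. The median difference of the 10 was 2.199 on the log2 scale, against 0.32 over all tested genes. None of the 10 passed an adjusted p of 0.05 (limma on experiment means, Benjamini-Hochberg over all 11680 genes), where 0.0514% of all genes passed, and 6 of the 10 had an unadjusted p under 0.05, against 1599 of all genes. The largest difference was that of Trib3, 2.93 ± 0.97 (SE, 2 and 3 experiments; adjusted p = 0.232 by limma). Ddit4 differed by 2.753 ± 0.84 and Mthfd2 by 2.52 ± 0.77, each with a limma adjusted p of 0.214. Ddit3 differed by 2.58 ± 1.20, Psat1 by 2.26 ± 0.99, Chac1 by 2.13 ± 0.70 and Asns by 1.85 ± 0.99, with limma adjusted p values from 0.232 to 0.405. Phgdh with 0.81 ± 0.77 and Atf5 with 0.57 ± 0.68 were closer to the median of all genes. Atf4 itself differed by -0.12 ± 0.80, and its sign turned in cells of the first sequencing run, where the difference was 0.78. Without the first 16 hour DMSO experiment, that of 3 cells, Ddit3 differed by 1.06, Asns by 1.58, Chac1 by 1.89, Mthfd2 by 2.08, Psat1 by 2.11, Trib3 by 2.16 and Ddit4 by 2.77. For Asns, leaving out the second E3.25 experiment gave a difference of 0.47, and leaving out the first gave 3.24.

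In 7 of the 10 genes, Atf5, Psat1, Chac1, Ddit3, Ddit4, Trib3 and Mthfd2, every 16 hour DMSO experiment lay above both E3.25 experiments, and in none did they all lie below. Among all tested genes, 23.2% lay above in this way and 6.93% below. Within the first and the second sequencing run, Trib3 differed by 2.83 and 3.03, Ddit4 by 3.17 and 2.59, and Mthfd2 by 3.72 and 1.61. With the number of detected genes as a covariate the differences were 1.75 for Trib3, 2.60 for Ddit4, 2.10 for Mthfd2, 1.65 for Chac1, 1.11 for Psat1, 0.81 for Ddit3 and 0.77 for Asns. Trophectoderm markers also differed in this comparison, with 10 of 11 tested markers positive and a median difference of 0.78. Of all genes 66.6% were positive, with a median of 0.32. Of the 11 markers, 3 lay above without overlap, as 23.2% of all genes did. The summed trophectoderm level, from 183 to 1047 TPM against 317 to 358 at E3.25, overlapped. All 6 inner cell mass markers were lower, with a median of -1.20, and 7 of 8 epiblast markers were lower, with a median of -1.13. The part of these markers in the result was not tested. All 16 hour experiments were dated later than the fresh ones, and their nominal age was not that of E3.25. Culture, date and age thus cannot be told apart.

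After 24 hours the median difference of the 10 genes from E3.75 was smaller than that from E3.25 after 16 hours. Phgdh and Atf4 differed more after 24 hours, by 1.74 and 0.43 against 0.81 and -0.12. The 2 comparisons were not tested against each other. The 24 hour comparison has an older fresh age as well as a longer culture, and the part of each was not tested. Among fresh cells, the median difference of the 10 genes from E3.25 to E3.75 was 0.61, against -0.09 over all genes. Between 24 hour DMSO and E3.75 the median over the 10 genes was 0.79, against 0.10 over all genes. Of the 10, 8 were positive, as were 58.9% of all genes. No gene of the 10 passed the adjusted threshold in limma, nor did any of all tested genes (0%), and 3 of the 10, Ddit4, Trib3 and Phgdh, had an unadjusted p under 0.05, against 370 of all genes. Trib3 differed by 2.24 ± 0.97, Ddit4 by 2.12 ± 0.84, Phgdh by 1.74 ± 0.77, Mthfd2 by 1.53 ± 0.77 and Psat1 by 1.13 ± 0.99. Chac1 differed by 0.44 ± 0.70, Atf4 by 0.43 ± 0.80, Atf5 by 0.39 ± 0.68, Asns by -0.16 ± 0.99 and Ddit3 by -0.90 ± 1.20. The experiments did not overlap for Atf4, Atf5, Phgdh, Chac1, Ddit4, Trib3 and Mthfd2, all higher in culture, where 12.5% of all genes lay above and 5.49% below. By run, Trib3 differed by 1.82 and 2.52 and Ddit4 by 1.86 and 2.38, while Asns differed by 1.33 in the first run and -1.95 in the second. Atf5 was also unsettled, with -0.51 in the first run and 1.75 in the second. Of 11 tested trophectoderm markers 8 were higher in culture and 3 lower, with a median of 0.26. Gata3 was detected in 0 of 28 cells with DMSO against 2 of 22 at E3.75, and Eomes in 9 of 28 against 9 of 22. Cdx2 and Elf5 were each detected in 2 of 28 against 0 of 22. Krt18 differed by 3.50 and Krt8 by 1.63 without overlap, and 1 other marker lay below without overlap. The summed trophectoderm level, from 206 to 345 TPM against 86.8 to 137, did not overlap either, and 7 of 8 epiblast markers were lower, with a median of -0.98. The part of these markers in the result was not tested.

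**Figure D3:**
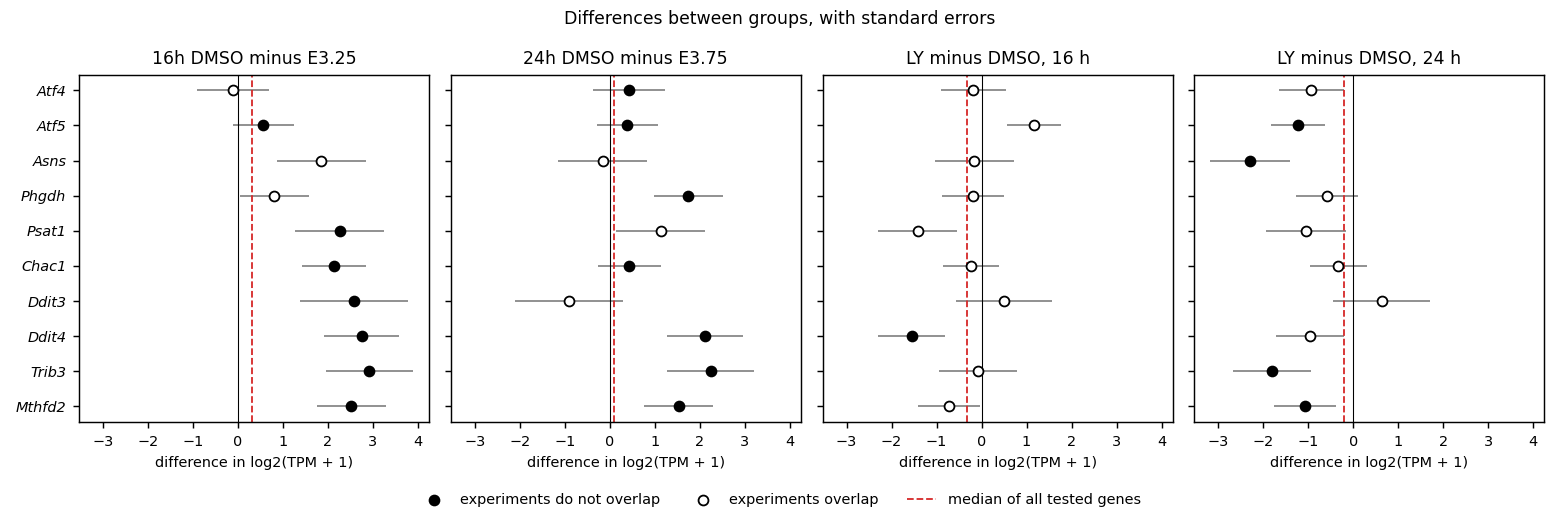
Difference in log2(TPM + 1) of each gene between 2 groups, with its standard error from limma as a bar, in 4 comparisons; filled points mark genes whose experiments do not overlap between the groups, and the dashed line is the median of all tested genes. In the 16 hour DMSO against E3.25 panel 9 of 10 points lie right of 0, and in the 24 hour LY panel 9 of 10 lie left of it.

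LY was compared with DMSO at each culture time. At 24 hours 9 of the 10 genes had a lower mean with LY, with a median difference of -1.01, against -0.20 over all tested genes. Of all tested genes 32.6% were higher with LY. No gene of the 10 passed the adjusted threshold in limma and 0% of all genes did, while 2 of the 10 and 615 of all 11680 had an unadjusted p under 0.05. Asns differed most, by -2.30 ± 0.88 (SE, 3 experiments each; limma adjusted p = 0.899), followed by Trib3 with -1.80 ± 0.86 and Atf5 with -1.23 ± 0.61. Mthfd2 differed by -1.08 ± 0.69, Psat1 by -1.05 ± 0.88, Ddit4 by -0.97 ± 0.75, Atf4 by -0.93 ± 0.72, Phgdh by -0.59 ± 0.69 and Chac1 by -0.33 ± 0.63. Ddit3 alone had a higher mean with LY, by 0.63 ± 1.07. With the shared date as a block the limma adjusted p of Asns was 0.235, the lowest of the 10, and over its 17 alternatives it ranged from 0.235 to 1.

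For Asns, Atf5, Trib3 and Mthfd2 all 3 LY experiments at 24 hours lay below all 3 DMSO experiments, and 8.64% of all tested genes did so; none of the 10 lay wholly above, as 2.26% of all genes did. The same 4 genes were lower with LY on each of the 3 dates. Asns differed by -1.04, -3.04 and -2.81 on the 3 dates, Trib3 by -2.86, -0.90 and -1.65, Atf5 by -1.41, -0.96 and -1.31, and Mthfd2 by -1.01, -0.87 and -1.37. Within the 2 sequencing runs Asns differed by -3.73 and -1.44, and Trib3 by -3.18 and -0.79. Detected genes moved with LY too, from 5726, 6668 and 6969 per cell with DMSO to 4556, 6389 and 5373 with LY on the same dates. With that number as a covariate the differences were -1.70 for Asns, -1.16 for Trib3, -1.04 for Atf5 and -0.85 for Mthfd2. On the log2 of the mean TPM over cells, Asns differed by -0.82, Mthfd2 by -0.29, Psat1 by -0.14, Phgdh by -0.22 and Atf4 by -0.15, while Trib3 differed by -1.63, Atf5 by -0.999, Ddit4 by -1.17 and Chac1 by -0.58. The Atf4 difference rested on the third date, where it was -2.85, against -0.51 and 0.56 on the others.

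At 16 hours the median difference over the 10 genes was -0.19, against -0.33 over all tested genes. With LY 2 of the 10 were higher, against 23.4% of all genes. No gene of the 10 and 0% of all genes passed the adjusted threshold in limma, and none of the 10 had an unadjusted p under 0.05, against 641 of all genes. After quantile normalization, which removes the shift of the median, 7 of the 10 were higher, since Atf4, Asns, Phgdh, Chac1 and Trib3 turned from slightly negative to slightly positive. Without the DMSO experiment of 3 cells the same 5 turned, to 0.25 for Atf4, 0.12 for Asns, 0.21 for Phgdh, 0.0098 for Chac1 and 0.68 for Trib3, so 7 of the 10 were again higher, and without the third LY experiment 6 were. Ddit4 differed by -1.55 ± 0.75 and was the one gene of the 10 whose LY experiments all lay below the DMSO ones, where 8.84% of all genes did so and 1.35% lay above. It was lower on all 3 dates, by -0.65, -0.82 and -3.19, and Psat1, which differed by -1.42 ± 0.88, was lower by -0.60, -1.11 and -2.55. Mthfd2 was also lower on all 3 dates, with a difference of -0.73 ± 0.69. Atf5 was higher on all 3 dates, by 1.72, 1.59 and 0.18, and differed by 1.16 ± 0.61 (limma adjusted p = 0.854). Ddit3 differed by 0.50 ± 1.07, or by 2.02 without the DMSO experiment of 3 cells, and Atf4, Asns, Phgdh, Chac1 and Trib3 lay between -0.23 and -0.08.

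**Figure D4:**
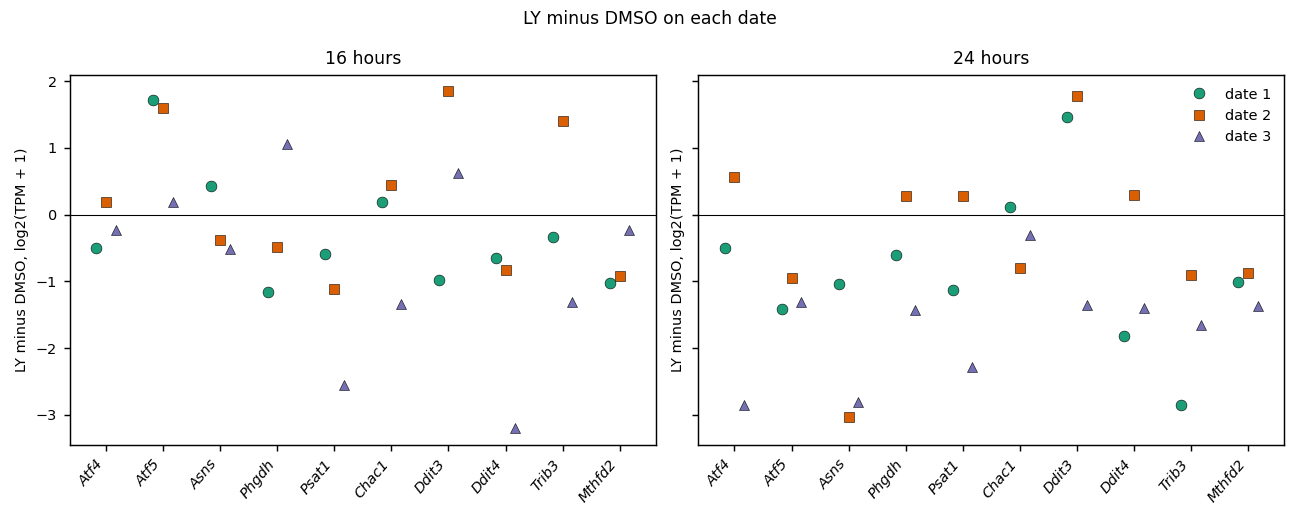
LY minus DMSO in log2(TPM + 1) for each gene on each of the 3 dates at 16 hours (left) and 24 hours (right); each point is the difference between 2 experiments of 1 date. At 24 hours Asns, Trib3, Atf5 and Mthfd2 are below 0 on all 3 dates, and at 16 hours Atf5 is above 0 on all 3.

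The difference between the LY effects at 24 and 16 hours was tested directly. It was -2.39 ± 0.86 for Atf5, -2.14 ± 1.25 for Asns and -1.72 ± 1.22 for Trib3, or -2.45, -2.41 and -2.49 without the DMSO experiment of 3 cells. Atf4 gave -0.75 ± 1.01, Phgdh -0.39 ± 0.97, Mthfd2 -0.35 ± 0.97 and Chac1 -0.10 ± 0.89. Positive values were 0.59 ± 1.06 for Ddit4, 0.37 ± 1.25 for Psat1 and 0.13 ± 1.52 for Ddit3. The limma adjusted p was 1 for each of the 10, 0% of all genes passed, and Atf5 was the one gene of the 10 with an unadjusted p under 0.05, against 291 of all genes. The response of the 10 genes to LY was thus not shown to differ between the times.

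Across the fresh ages the 10 genes had differences of both signs. From E3.25 to E4.0 the difference was 2.61 ± 1.08 for Asns, 1.80 ± 0.74 for Atf5, 1.61 ± 0.77 for Chac1 and -2.10 ± 0.84 for Phgdh (SE, 2 experiments each), with limma adjusted p values of 0.301, 0.297, 0.388 and 0.279. Leaving out 1 experiment at a time, the difference ranged from 1.23 to 3.99 for Asns, from 0.89 to 2.702 for Atf5, from 1.07 to 2.14 for Chac1 and from -3.21 to -0.99 for Phgdh. The values nearest 0 came without the second E3.25 experiment for Asns, without the first E4.0 experiment for Chac1, and without the second E4.0 experiment for Atf5 and Phgdh. None of the 10 passed, against 1.67% of all genes, and these 4 had an unadjusted p under 0.05, as did 1502 of all genes. Mthfd2 differed by 1.05 ± 0.84, Ddit3 by 0.81 ± 1.31, Trib3 by 0.67 ± 1.06, Atf4 by -0.58 ± 0.88, Ddit4 by -0.61 ± 0.92 and Psat1 by -0.65 ± 1.08. The experiments did not overlap for Asns, Atf5 and Chac1, which were higher at E4.0, and for Phgdh and Ddit4, which were lower, where 26.4% of all genes lay above and 15.2% below. Phgdh differed by -0.30 in cells of the first run and by -3.66 in those of the second, where it passed the threshold with a limma adjusted p of 0.0361; over its 14 alternatives the adjusted p ranged from 0.0361 to 0.995. Primitive endoderm markers moved in the same comparison, with 5 of 10 passing as higher, and their part in the result was not tested.

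The earlier step, E3.25 to E3.75, had a median difference of 0.61 over the 10 genes against -0.09 over all genes, and no gene of either passed in limma (0%), none of the 10 and 536 of all with an unadjusted p under 0.05. Atf5, Chac1, Ddit3 and Mthfd2 lay above without overlap and Phgdh below, against 11% and 19.7% of all genes. From E3.75 to E4.0 the median was 0.02 against 0.29, none of the 10 passed in limma where 1.41% of all genes did, and none had an unadjusted p under 0.05, against 1108 of all genes. Atf4 and Phgdh lay below without overlap, as 8.27% of all genes did, and none lay above, as 27.9% of all did. Between 16 and 24 hours in DMSO the median was -0.41 against -0.29, none of the 10 passed in limma where 0.00856% of all genes did, and none had an unadjusted p under 0.05, against 1268 of all genes. Of the 10, 3 were higher at 24 hours, or 5 without the DMSO experiment of 3 cells, while 30.2% of all genes were higher in the main fit. Atf5 lay above and Psat1 below without overlap, against 2.16% and 14.3% of all genes.

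The mean level over all 10 genes was 2.64 ± 0.17 (SD, n = 2) in the E3.25 group, 3.09 ± 0.65 in the E3.75 group and 3.10 ± 0.77 in the E4.0 group. After 16 hours it was 4.47 ± 0.84 (SD, n = 3) in DMSO and 4.18 ± 1.14 in LY, and after 24 hours 3.99 ± 0.28 and 3.02 ± 0.67. All 6 DMSO experiments, from 3.63 to 5.32, lay above 5 of the 6 fresh ones, the exception being E4.0 experiment 1 at 3.64. The 24 hour LY experiments, from 2.25 to 3.41, lay within or below the fresh range. On average 4.6 of the 10 genes were detected per cell at E3.25, 8.14 with DMSO at 16 hours and 5.48 with LY at 24 hours.

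Between cells of the same experiment the genes went together only loosely. After subtracting each experiment's mean, the 45 pairs of the 10 genes had a median Pearson's r of 0.0999 across 169 cells, and 36 pairs were above 0, which is 80%. Over all pairs of tested genes the median was 0.0257 and 60.3% were above 0. The highest pairs were Asns with Psat1 at 0.47, Chac1 with Trib3 at 0.41, Chac1 with Mthfd2 at 0.34 and Ddit4 with Trib3 at 0.31. The highest pair of Atf4 was that with Ddit4, 0.20, and its r with Asns was -0.31, the lowest of the 45. All genes of a cell share 1 library, and r with the number of detected genes was 0.28 for Psat1, 0.23 for Asns and Chac1 and -0.11 for Atf4. Across the 55 fresh cells, r with the primitive endoderm marker score was -0.42 for Phgdh, 0.35 for Asns, -0.33 for Ddit4 and 0.32 for Chac1. With the epiblast marker score it was -0.37 for Phgdh, -0.36 for Trib3 and 0.07 for Ddit3. In the 14 cells at E4.0 alone, the primitive endoderm values of these genes were -0.38, 0.49, -0.72 and 0.62, with Ddit4 detected in 2 of the 14. Their epiblast values there were -0.12 for Phgdh, -0.58 for Trib3 and 0.66 for Ddit3.

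**Figure D5:**
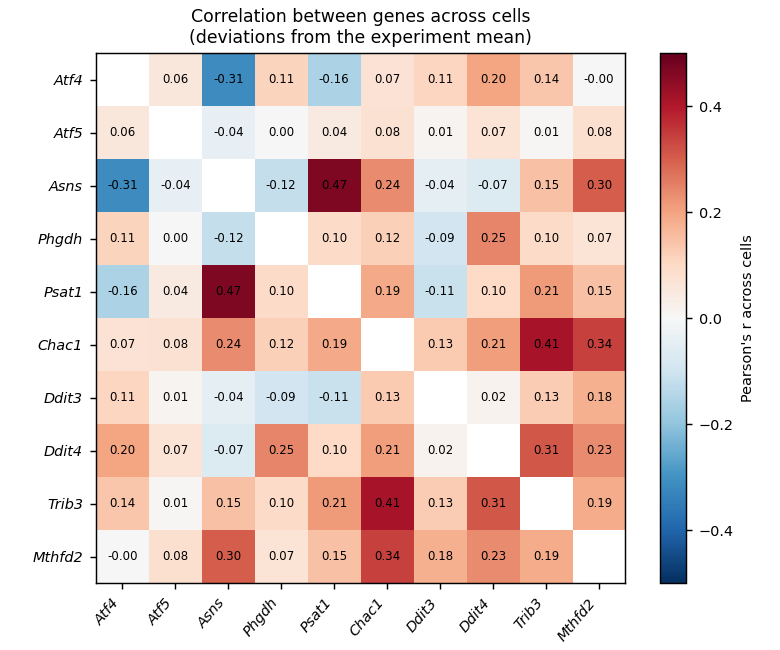
Pearson's r between each pair of the 10 genes across 169 cells, computed on log2(TPM + 1) after subtracting the mean of each cell's experiment; red is positive and blue negative. Asns with Psat1 (0.47) and Chac1 with Trib3 (0.41) are the highest pairs, and Atf4 with Asns (-0.31) is the lowest.

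The 5 tested genes whose pattern over the 18 experiment means was most like the mean standardized pattern of the 10 were Naaa with a Pearson's r of 0.92, Uba3 with 0.87, Prdm15 and Hmox2 with 0.84, and Nupr1 with 0.83. These points share groups and dates, and the genes were picked for the likeness. Nupr1, a small stress-induced chromatin protein, was also listed among the partners and feedback genes of ATF4. Of the 12 genes of that list 6 were tested, Nupr1 among them. Their median difference was 0.27 between 16 hour DMSO and E3.25, against 0.32 over all genes, with 5 higher. With LY at 24 hours the median was -0.24, against -0.20, with 1 higher. Of all genes 66.6% were higher in the former and 32.6% in the latter. The Nupr1 level was 0 and 0.36 at E3.25, 4.54 and 0 at E3.75, and 1.97 and 0.98 at E4.0. In culture it was 7.83, 6.13 and 3.11 with DMSO and 4.05, 4.75 and 0.96 with LY at 16 hours, and 3.51, 5.96 and 4.91 with DMSO and 1.14, 2.67 and 1.62 with LY at 24 hours. The 16 hour DMSO experiments lay above both E3.25 experiments, with a difference of 5.51 ± 1.297 (limma adjusted p = 0.149), and in cells of the second run it passed with 6.78 and an adjusted p of 0.0353, the lowest of 15 alternatives that ranged up to 0.635. Without the DMSO experiment of 3 cells that difference was 4.44. The 24 hour LY experiments lay below all DMSO ones, with a difference of -2.98 ± 1.16, and at 16 hours the difference was -2.44 ± 1.16 with overlap, or -1.37 without the DMSO experiment of 3 cells and -1.12 with detected genes as a covariate.

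Other genes of the pathway were read from lists. Of 9 tested kinases and phosphatase parts upstream of ATF4, none passed in any of the 4 comparisons of culture or LY. Eif2ak3, which encodes the stress kinase PERK, differed by -0.80 ± 0.26 with LY at 24 hours without overlap, from levels of 1.21, 0.68 and 0.65 to 0, 0.01 and 0.13. Of all genes 8.64% lay below in this way. Eif2ak3 was near the floor, detected in 6 of 28 cells with DMSO and 0 of 24 with LY. Only E4.0 had enough detected cells for the filter on low genes, so the difference is given as a description. Of 13 tested enzymes of serine, one-carbon, proline and transsulfuration metabolism beside the 10 genes, none passed. Their median difference was 0.36 between 16 hour DMSO and E3.25, against 0.32 over all genes, with 9 higher, and -0.08 with LY at 24 hours, against -0.20, with 5 higher. Of all genes 66.6% were higher in the former and 32.6% in the latter. Psph, the last enzyme of serine synthesis, differed by 3.59 ± 0.92 between 16 hour DMSO and E3.25 (limma adjusted p = 0.161), or 2.83 without the DMSO experiment of 3 cells, and by -1.58 ± 0.83 with LY at 24 hours, both without overlap. Its levels were 1.87 and 0.27 at E3.25, 6.19, 4.52 and 3.28 with DMSO at 16 hours, and 3.91, 4.40 and 3.39 with DMSO against 2.05, 3.03 and 1.88 with LY at 24 hours.

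Of 20 aminoacyl-tRNA synthetases, which load amino acids onto tRNA, none passed in these comparisons. The median difference was 0.56 from E3.25 to 16 hour DMSO and -0.49 with LY at 24 hours, with 16 higher in the former and 16 lower in the latter. Over all genes the medians were 0.32 and -0.20, with 66.6% of genes higher in the former and 32.6% higher in the latter. Rars differed by 2.59 ± 0.91 and Farsb by 2.30 ± 0.85 in the former, and Farsb by -1.55 ± 0.76 and Hars by -1.51 ± 0.69 in the latter. The 16 chaperones of the endoplasmic reticulum, the arm of the stress response driven by unfolded proteins, had a median difference of 0.09 from E3.25 to 16 hour DMSO, against 0.32 over all genes, with 9 higher and none passing. With LY 15 of the 16 were lower at 16 hours, with a median of -0.63 against -0.33, and 11 were lower at 24 hours, with a median of -0.40 against -0.20. Of all genes 23.4% were higher with LY at 16 hours and 32.6% at 24 hours. Of 9 tested amino acid transporters, 8 were lower with LY at 24 hours, with a median of -0.72, against -0.20 over all genes, and none passing. Slc38a2, a neutral amino acid transporter, entered the test only through E4.0, the one group with enough detected cells for the filter on low genes, so its differences to E4.0 are given as a description. They were 2.05 ± 0.44 from E3.75 and 1.96 ± 0.44 from E3.25. Its levels were 0.19 and 0 at E3.25, 0.02 and 0.01 at E3.75, and 3.04 and 1.084 at E4.0, where it was detected in 8 of 9 and in 1 of 5 cells. Without the first experiment at E4.0 the differences were 1.07 and 0.99. Of 8 tested mTORC1 and PI3K response genes none passed. Their median with LY was -0.36 at 16 hours, against -0.33 over all genes, with 2 higher. At 24 hours it was 0.15, against -0.20, with 5 higher. The shares of all genes higher with LY were 23.4% and 32.6%.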

How the data were processed

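Single inner cells were profiled from the 3′ end of polyadenylated RNA, with Nextera XT libraries sequenced in pairs in 2 runs, per the labels' protocols. The authors deposited 1 table of TPM values with 170 columns for 186 labelled samples, and 16 samples were not analysed here. The submitters' processing notes name build mm10 and the tools RSEM 1.3.3, STAR 2.7.9a, cutadapt 2.9 and bcl2fastq 2.20.0; the sources used here do not give their settings or annotation. The 92 spike-ins were left out. A same-named pair of E3.25 columns (r = 0.824, against at most 0.783 with any other column of its experiment) was averaged as 1 cell, leaving 169. A same-named pair in the first 24 hour LY experiment (r = 0.594, against up to 0.724 with another column there) was kept as 2 cells.

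Values were log2(TPM + 1), with a pseudocount of 1, averaged over the cells of an experiment. The 18 experiment means of 7 groups were compared with limma 3.58.1 (R 4.3.3; lmFit, contrasts.fit, eBayes with trend), Benjamini-Hochberg over the 11680 genes that reached a TPM of 1 in 25% of cells or more in any group, and a threshold of 0.05. The code was tested on simulated data. Positions are from GENCODE M21, which held 53642 of the 55421 symbols, and promoters from RefSeq. The members and lists were chosen with earlier results of these data known. All 10 members are named in each main comparison. From other lists, genes past the threshold (at most 4 per list and comparison) could be named and, for LY and for culture, the 2 with the largest differences. LY and DMSO experiments share dates, per the labels; same-date arms deviated together with an r of 0.393, 0.121 and 0.317 (16 hours) or 0.231, 0.120 and 0.0732 (24 hours). The labels do not say whether cells of an experiment came from separate embryos. Alternatives changed the pseudocount, filter, scaling, covariate, run, groups in the fit and replicates.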

Additional observations from a re-analysis of the deposited data

Results flagged for a closer look

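The LY minus DMSO difference of Atf5 had opposite signs at the 2 culture times. It was higher with LY on all 3 dates at 16 hours, by 1.72, 1.59 and 0.18, and lower on all 3 dates at 24 hours, by -1.41, -0.96 and -1.31. The difference between the effects was -2.39 (limma unadjusted p = 0.0109, adjusted p = 1), and 2.67% of all tested genes had opposite signs of this kind in all 6 date pairs.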

How the results depend on the processing

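Over all alternatives, 144 of 145 fits called none of the 10 genes, and the exception called 1, Phgdh from E3.25 to E4.0 with cells of the second run. Of 849 alternative differences of the 10 genes, 794 kept their sign and their side of the threshold and 54 turned sign, and the cause of the turns was not tested. The sign could not turn in every alternative. Fits with no filter, with only the compared groups or with the date as a block keep each difference at its main value. Averaging the same-named columns changed only differences involving the 24 hour LY group. These fits are part of the counts of 849, 17 and 15 alternatives. The 24 hour LY differences of Asns, Trib3, Atf5, Mthfd2, Psat1, Ddit4 and Phgdh kept their sign in all 17 alternatives, as did the 16 hour DMSO differences from E3.25 of Trib3, Ddit4, Mthfd2, Ddit3, Psat1, Chac1 and Asns in all 15. With the date as a replicate block, which the shared dates allow, none of the 10 genes and 0 of all genes passed in the 3 LY comparisons, with adjusted p from 0.235 to 0.821 at 24 hours and from 0.385 to 0.966 at 16 hours in limma, so the block changed no call; fresh groups share no date with culture and were not blocked.

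For LY against DMSO at 16 hours, differences of the other sign were Phgdh 0.050 and Trib3 0.24 on the log2 of mean TPM, Chac1 0.058 and Trib3 0.13 with a pseudocount of 10, Atf4 0.095, Asns 0.63, Chac1 0.41 and Mthfd2 0.13 in the second run, Atf4 0.10, Asns 0.38, Phgdh 0.15, Chac1 0.14 and Trib3 0.41 after quantile normalization and Atf4 0.30, Asns 0.58, Chac1 0.091 and Trib3 0.71 with detected genes as a covariate. For LY against DMSO at 24 hours, differences of the other sign were Atf4 0.14 and Chac1 0.57 in the second run. For E4.0 against E3.25, differences of the other sign were Atf4 0.044 and Trib3 -0.44 in the first run, Psat1 0.041 in the second run and Ddit3 -0.37 and Trib3 -0.11 with detected genes as a covariate. For 16 hour DMSO against E3.25, differences of the other sign were Atf5 -0.15 and Phgdh -0.077 on the log2 of mean TPM and Atf4 0.78 in the first run. For 24 hour DMSO against E3.75, differences of the other sign were Atf5 -0.98 on the log2 of mean TPM, Atf5 -0.034 with a pseudocount of 10 and Atf5 -0.51, Asns 1.33 and Nupr1 -0.58 in the first run. Leaving out 1 experiment at a time turned the sign of some: for LY against DMSO at 16 hours, Atf4 from -0.60 to 0.26, Asns from -0.72 to 0.55, Phgdh from -0.58 to 0.21, Chac1 from -0.73 to 0.72, Trib3 from -0.72 to 1.12 and Ddit3 from -0.29 to 2.02. For LY against DMSO at 24 hours, Ddit3 from -0.019 to 1.67. For E4.0 against E3.25, Atf4 from -1.50 to 0.34, Psat1 from -1.30 to 0.012, Ddit3 from -0.35 to 1.96 and Mthfd2 from -0.13 to 2.24. For 16 hour DMSO against E3.25, Atf4 from -1.04 to 0.81. For 24 hour DMSO against E3.75, Asns from -1.51 to 1.19 and Psat1 from -0.80 to 3.06.

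The number of all genes called moved more. From E3.25 to 16 hour DMSO it was 6, and 81 with no filter, 49 with only the compared groups, 24 in the second run, 0 in the first, 13 with a pseudocount of 10, 10 after quantile normalization, 1 with the covariate and 0 to 52 leaving out 1 experiment. From E3.25 to E4.0 it was 195, and 361 with no filter, 0 with only the compared groups, 12 and 384 in the runs, 129 on the log2 of mean TPM and 70 to 304 leaving out 1 experiment. From E3.75 to E4.0 it was 165, and 13 in the first run, 0 with only the compared groups, 70 on the log2 of mean TPM, 105 after quantile normalization and 51 to 278 leaving out 1 experiment. With no filter, 90 genes passed from E3.25 to E3.75, 17 from E3.75 to 24 hour DMSO, 3 between the DMSO times and 1 for LY at 16 hours. TPM keeps no depth, and 2 or 3 experiments a group limit what any of these fits can show.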
